A study of Mus musculus with 6 samples.

Results

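The 10 genes described here encode integrin chains that bind fibronectin, laminin, vitronectin and VCAM1: the alpha chains Itga4, Itga5, Itga6, Itga9 and Itgav and the beta chains Itgb1, Itgb3, Itgb5, Itgb7 and Itgb8. They were chosen by symbol, and all 10 were found among the 42256 genes of the deposited count table. RNA had been sequenced from mouse macrophages grown out of bone marrow for 7 days in medium with 20% L929-conditioned medium, a source of the growth factor CSF1, and 10% FBS. The donors were adult male mice of mixed 129S1/Sv x C57BL/6 background, either CDH11+/+ (wild type, WT, 3 libraries) or CDH11-/- (knockout, KO, 3 libraries). The cultures received no treatment. The labels give no further detail of the allele. The series text speaks of 4 CDH11-/- animals, and the labels tie no library to an animal, so the spread that the p-values measure may in part be technical. Cdh11 encodes cadherin-11, a cell-cell adhesion protein, and the series places its loss in the context of atherosclerosis and macrophage migration.

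An integrin is a heterodimer of 1 alpha and 1 beta chain that spans the membrane, holding matrix or another cell outside and, through talin and kindlin, the actin cytoskeleton inside. The alpha chain largely sets the ligand. With Itgb1, alpha-5 makes the classical fibronectin receptor, alpha-6 a laminin receptor, and alpha-4 the receptor VLA-4 for VCAM1 and an alternatively spliced part of fibronectin. Itga4 also pairs with Itgb7 in the receptor for the gut addressin MAdCAM-1. Itgav pairs with several beta chains: beta-3 and beta-5 give vitronectin and osteopontin receptors, and beta-8 a receptor that activates latent TGF-beta. Monocytes use VLA-4 to leave the blood, and macrophages use beta-1 and beta-3 integrins to adhere and move. Transcript levels do not show which dimers reach the cell surface.

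Total counts ran from 27170943 to 37113689 per library. Levels are given as CPM, counts of a gene brought to a common library size with TMM-adjusted totals. Changes were tested with edgeR's quasi-likelihood test, and "rose" and "fell" are used for a Benjamini-Hochberg adjusted p under 0.05 over the 12862 genes tested. Of these, 35.2% were called, 18.5% higher and 16.8% lower in KO, and in 53.4% the WT and KO ranges of CPM were separate. Of the called genes 52.4% were higher in KO, and 64.4% with upper quartile scaling. The number called, 4532, dropped to 1979 and 2487 when WT 1 or WT 2 was left out, and to 2719 and 2379 when KO 2 or KO 3 was. Cdh11 had 6 to 11 counts in WT and 4 to 6 in KO libraries, too few to check the genotype labels. All 10 macrophage markers examined passed the filter on low counts (Lyz2 highest), 3 of them lower and 1 higher in KO. The first principal component placed WT libraries at -22.86 to -12.21 and KO libraries at 7.11 to 28.36, and KO 1 lay nearest to WT.

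Among the 10 integrin genes, Itga4, Itga6 and Itgb5 fell in KO macrophages and Itga5 rose. Itgb1, a chain with which all 5 of these alpha chains can pair, stood 1.14-fold higher in KO but did not pass the test, and Itgav was at nearly the same level in both genotypes. Of the 9 genes that passed the filter on low counts, 1 rose, 3 fell and 5 were not called. That is 44.4% called beside 35.2% of all genes tested, a share close to the background. The median log2 fold change of the 9 was -0.06 beside 0.00 over all tested genes, and the median absolute change was 0.38 beside 0.25. The genotypes did not overlap in 5 of the 9, beside 53.4% of all genes.

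**Figure D1:**
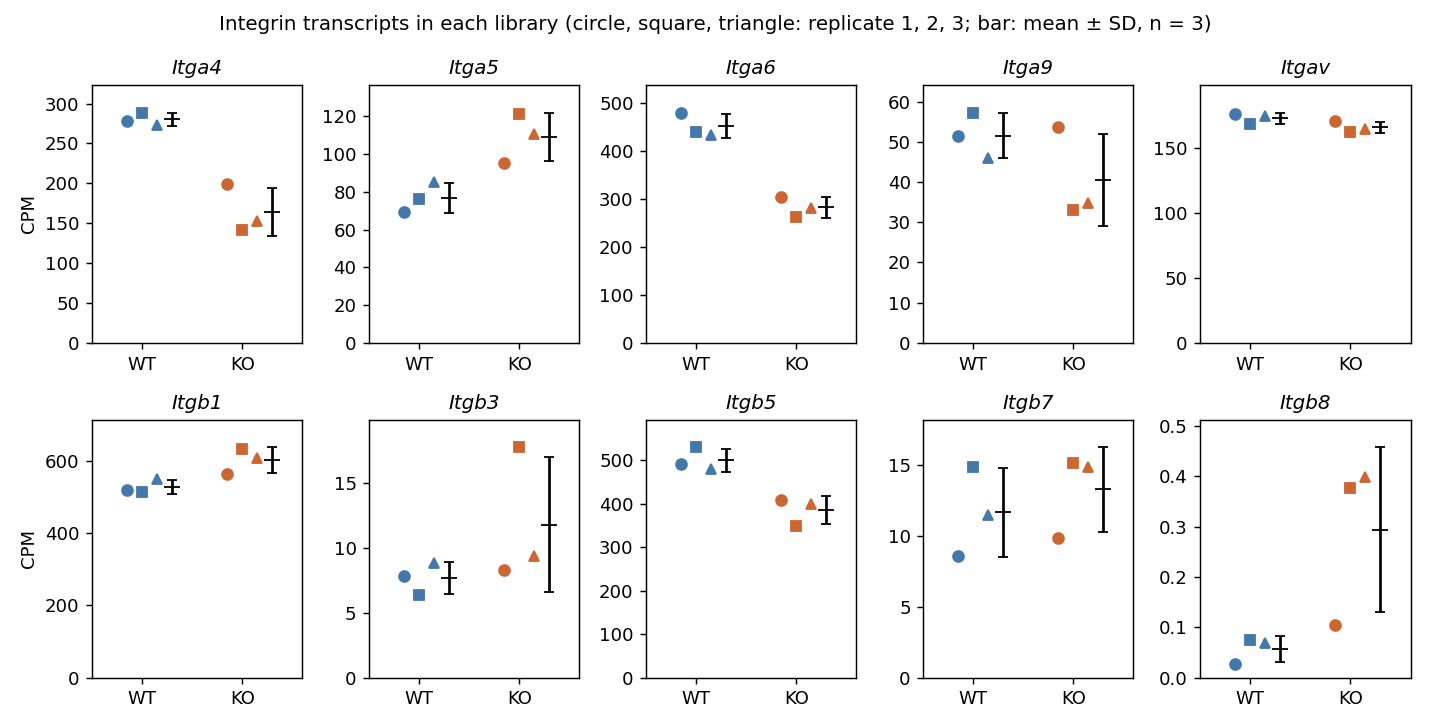
Level in CPM (vertical axes, each from 0) of the 10 integrin genes in the 3 WT (blue) and 3 KO (orange) libraries, with mean ± SD (n = 3) in black. The genotypes are separate for Itga4, Itga5, Itga6, Itgb1, Itgb5 and, at a handful of counts, Itgb8; KO 1 is the KO library nearest to WT for Itga4, Itga5, Itga6, Itga9, Itgb1, Itgb3, Itgb5 and Itgb8.

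Itga4, the alpha chain of VLA-4 (ENSMUSG00000027009, GRCm38 chromosome 2, 79255426 to 79333123, plus strand), was at 279, 289 and 273 CPM in WT 1 to 3 and at 199, 141.5 and 153 CPM in KO 1 to 3. Every KO library was below every WT library, and KO 1 was the highest of the KO libraries. The mean went from 280.2 ± 7.81 to 164 ± 30.4 CPM (SD, n = 3 each), a log2 fold change of -0.77 (SE 0.12, edgeR adjusted p = 0.00707). The oppositely oriented gene Cerkl overlaps this locus and held 39 to 72 counts per library, against 4123 to 10401 for Itga4. Strand handling in the counting is not given in the sources used here.

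Itga6, the laminin-binding chain (ENSMUSG00000027111, chromosome 2, 71745616 to 71858416, plus strand), was at 479, 439.6 and 432 CPM in WT and at 304, 261 and 280.3 CPM in KO. The genotypes were well apart, the closest libraries being WT 3 and KO 1. The mean fell from 450.4 ± 25.15 to 282 ± 21.6 CPM (SD, n = 3 each), a log2 fold change of -0.68 (SE 0.08, edgeR adjusted p = 0.00462). This was the smallest adjusted p among the 9 tested members.

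Itga5, the alpha chain of the classical fibronectin receptor (ENSMUSG00000000555, chromosome 15, 103344286 to 103366763, minus strand), was at 69.3, 75.97 and 85.2 CPM in WT and at 95.4, 121 and 111 CPM in KO. All KO libraries were above all WT libraries, WT 3 and KO 1 being the closest. The mean rose 1.42-fold, from 76.8 ± 7.98 to 109 ± 12.9 CPM (SD, n = 3 each), with a log2 fold change of 0.51 (SE 0.11, edgeR adjusted p = 0.0133). The call was lost without WT 1 (log2 fold change 0.43, edgeR adjusted p = 0.0551).

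Itgb5, a beta chain that pairs with Itgav alone (ENSMUSG00000022817, chromosome 16, 33829665 to 33949338, plus strand), was at 491, 529 and 479 CPM in WT and at 407, 349 and 399 CPM in KO. The highest KO library was below the lowest WT library. The mean fell from 499.5 ± 26.4 to 385 ± 31.6 CPM (SD, n = 3 each), a smaller change than those of Itga4 and Itga6 (log2 fold change -0.38, SE 0.08, edgeR adjusted p = 0.0125).

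The promoter letters of the called members are shown to let the falling and rising genes be compared; RefSeq's table (GRCm38.p6) held 8 of the 10 members, Itga6 and Itgb3 not among them. Each line gives the 250 bases before the RefSeq start, 5′ to 3′ on the strand of the gene. Capitals mark matches, on either strand, to 6 short motifs: GAGGAA (a core bound by PU.1 and other ETS factors), GGGCGG (bound by SP and KLF factors), CCAAT (bound by NF-Y), TGANTCA (AP-1), TGTGGT (RUNX) and CACGTG (bound by MITF and TFE factors).
Itga4, chr2:79255176-79255425, plus strand, lower in KO: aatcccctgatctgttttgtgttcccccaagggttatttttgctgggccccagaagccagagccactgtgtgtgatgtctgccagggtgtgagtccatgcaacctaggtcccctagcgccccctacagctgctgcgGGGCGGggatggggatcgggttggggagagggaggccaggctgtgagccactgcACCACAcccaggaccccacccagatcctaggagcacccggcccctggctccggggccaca
Itgb5, chr16:33829415-33829664, plus strand, lower in KO: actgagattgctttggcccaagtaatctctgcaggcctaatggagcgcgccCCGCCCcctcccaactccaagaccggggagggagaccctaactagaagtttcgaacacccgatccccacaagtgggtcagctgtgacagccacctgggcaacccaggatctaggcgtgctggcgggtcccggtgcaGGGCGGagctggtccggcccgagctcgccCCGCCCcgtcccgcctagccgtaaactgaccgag
Itga5, chr15:103366792-103367041, minus strand, higher in KO: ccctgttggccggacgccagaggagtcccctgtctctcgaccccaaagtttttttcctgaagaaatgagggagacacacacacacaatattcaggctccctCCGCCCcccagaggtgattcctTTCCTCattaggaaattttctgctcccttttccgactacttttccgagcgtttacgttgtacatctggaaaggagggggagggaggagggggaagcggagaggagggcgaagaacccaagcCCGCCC

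All 3 windows held GGGCGG, which 32.7% of the 32851 promoter windows of this length in the table hold. Itgb5 had 3 matches, Itga5 had 2 and Itga4 had 1. The window of Itga4 also held TGTGGT, found in 14% of all windows, and that of Itga5 held GAGGAA, found in 23.3%. CCAAT (33.8% of all windows), TGANTCA (6.75%) and CACGTG (6.02%) matched none of these 3 windows. Over the 8 members in the table, GGGCGG was in 4, GAGGAA in 3, CCAAT and TGTGGT in 1 each and the other motifs in 0. A match describes letters and is not a measured binding site. The RefSeq starts used lie 28 bases from the gene start of GENCODE M21 for Itga5, 9 for Itgb7, 526 for Itgb8 and 105002 for Itga9, so the window of Itga9, which held no match, is not at the start of the gene model whose counts are given.

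Among the alpha chains that were not called, Itga9, which binds tenascin and osteopontin among other ligands, was at 51.4, 57.25 and 45.9 CPM in WT and at 53.8, 33.1 and 34.7 CPM in KO. KO 1 lay within the WT range and KO 2 and KO 3 below it. The means were 51.5 ± 5.68 and 40.5 ± 11.5 CPM (SD, n = 3 each; log2 fold change -0.35, SE 0.20, edgeR adjusted p = 0.216). Without KO 1 the log2 fold change was -0.61 and Itga9 passed the test (edgeR adjusted p = 0.00349), as it did with all libraries under limma-voom with sample quality weights (log2 fold change -0.50, adjusted p = 0.0205). Its locus overlaps the opposite-strand genes Gm2415 and Gm10157, which held 86 to 162 and 58 to 112 counts per library against 965 to 1920 for Itga9, so some counts may belong to either. Itgav, the shared partner of beta-3, beta-5 and beta-8, was at 176, 168 and 174 CPM in WT and at 170.2, 162 and 165 CPM in KO. The genotypes overlapped, and the log2 fold change of -0.06 (SE 0.05, edgeR adjusted p = 0.409) was the smallest of the 9 in size.

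Itgb1, the most abundant member in CPM, was at 521, 514 and 549 CPM in WT and at 563, 633 and 609 CPM in KO. The KO libraries were all higher, by a margin that in KO 1 was small. The means were 528 ± 18.3 and 602 ± 35.55 CPM (SD, n = 3 each; log2 fold change 0.19, SE 0.07), and the edgeR adjusted p of 0.0638 missed the threshold. It passed with DESeq2 (log2 fold change 0.185, adjusted p = 0.0369) and without KO 1 (edgeR log2 fold change 0.23, adjusted p = 0.0266). Itgb1 lies on chromosome 8, as does Cdh11, with 25.9 Mb between them.

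Itgb3, the beta chain of the vitronectin receptor of osteoclasts and, with Itga2b, of the platelet fibrinogen receptor, was at 7.82, 6.42 and 8.86 CPM in WT and at 8.29, 17.8 and 9.37 CPM in KO. Only KO 2 stood clearly above the WT libraries, and KO 1 lay inside their range. The means were 7.70 ± 1.23 and 11.8 ± 5.20 CPM (SD, n = 3 each), and the log2 fold change of 0.62 (SE 0.31) did not pass the test (edgeR adjusted p = 0.163). Without KO 2 it was 0.20 (edgeR adjusted p = 0.406). The sum of osteoclast markers, unlike Itgb3, was above all WT libraries in every KO library. The 9 listed came to 196.5 to 251 CPM in WT and 388 to 636 CPM in KO, with Atp6v0d2 the highest. Of 7 tested, 5 were higher: Ctsk, Ocstamp, Dcstamp, Mmp9 and Atp6v0d2. The 1 lower was Nfatc1, with means of 77.5 CPM in WT and 55.0 CPM in KO (edgeR adjusted p = 0.00707). Acp5 was not called (edgeR adjusted p = 0.0997), and Calcr, the calcitonin receptor, was at 0 counts in every library. Ctsk, the osteoclast collagenase, also peaked in KO 2, at 774 counts against 169 and 329 in KO 1 and KO 3 and 75 to 84 in WT. The part of such cells or genes in the level of Itgb3 was not tested. In bulk RNA, fewer cells of a type and less RNA per cell cannot be told apart.

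Itgb7, the partner of alpha-4 and alpha-E in lymphocytes and mast cell precursors, was at 8.57, 14.8 and 11.5 CPM in WT and at 9.83, 15.1 and 14.8 CPM in KO. The ranges overlapped widely (log2 fold change 0.20, SE 0.24, edgeR adjusted p = 0.556). Mast cell and basophil markers were near the detection limit: the 9 listed summed to 0.241 to 0.402 CPM in WT and 1.05 to 3.84 CPM in KO, with Cma1, Mcpt4 and Tpsb2 at 0 counts and Kit, the 1 tested, higher. Their part in the level of Itgb7 was not tested. Itgb8, which activates latent TGF-beta with Itgav, had 1, 2 and 2 counts in WT and 3, 11 and 12 counts in KO, and did not pass the filter on low counts. The summed counts of 5 and 26 give a ratio of 5.50 per library size, with a 95% exact interval of 2.08 to 18.4 that covers counting error only. The genotypes did not overlap, and a two-sided exact permutation test on the CPM gave p = 0.1, which is the smallest value possible with 3 against 3 libraries. Where no filter was used, edgeR's adjusted p for Itgb8 was 0.0371.

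**Figure D2:**
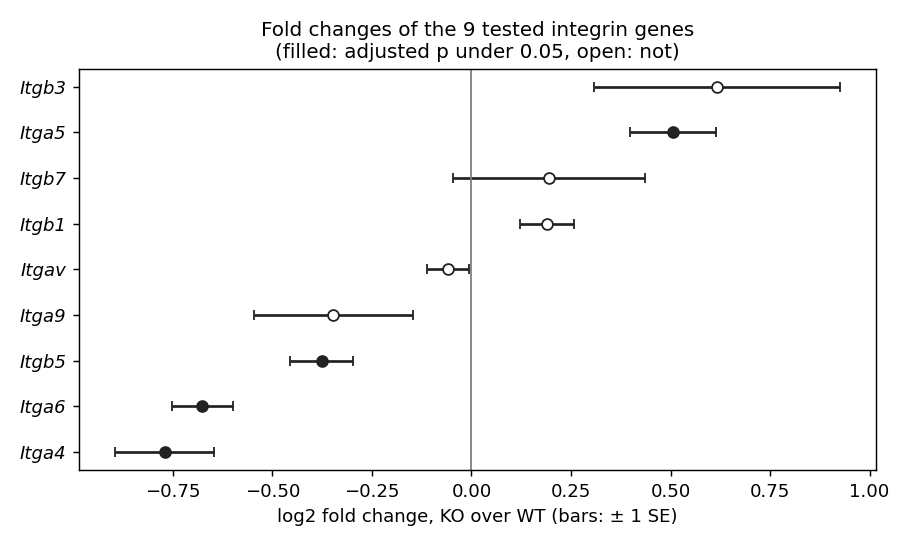
Log2 fold change of KO over WT (horizontal axis) with ± 1 SE from edgeR for the 9 integrin genes that passed the filter, in order of change. Filled points passed the adjusted p threshold: Itga4 at -0.77, Itga6 at -0.68, Itgb5 at -0.38 and Itga5 at 0.51; Itgb3 has a larger estimate than Itga5 but an SE of 0.31.

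Levels of different genes were compared per length, as CPM per kilobase of merged exons. In WT macrophages Itgb5 was the most abundant chain on this scale, at 140.6 ± 7.43, followed by Itgb1 at 129 ± 4.49, Itga6 at 49.9 ± 2.79, Itga4 at 20.05 ± 0.559, Itgav at 16.1 ± 0.398 and Itga5 at 15.6 ± 1.62. Itga9 at 6.70 ± 0.739, Itgb7 at 4.198 ± 1.13 and Itgb3 at 1.31 ± 0.208 were lower, and Itgb8 was at 0.00516 ± 0.00239. Neighbours in this order did not overlap between libraries except Itgav and Itga5. In KO the order began with Itgb1 at 147.5 ± 8.71 and Itgb5 at 108 ± 8.88, and Itga5 at 22.1 ± 2.62 stood above Itgav at 15.4 ± 0.385 and Itga4 at 11.8 ± 2.17. The first and second places and the fourth and sixth places were thus exchanged between the genotypes, and in KO the neighbours that overlapped were Itga9 and Itgb7. With the length of the longest transcript the order was the same in both genotypes.

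The 5 alpha chains together made 108 ± 1.67 CPM per kilobase in WT and 85.8 ± 3.79 in KO (0.792-fold), and the 5 beta chains 275.5 ± 5.65 and 262.6 ± 5.42. Within the alpha chains the share of Itga6 was 46.1 ± 1.86% in WT and 36.4 ± 1.34% in KO, and that of Itga4 was 18.5 ± 0.563% and 13.65 ± 1.89%. Itga5 took 14.4 ± 1.704% in WT and 25.9 ± 4.10% in KO, a gain of 11.5 percentage points. Itgav went from 14.8 ± 0.332% to 17.98 ± 0.346% with no change in its own level that passed the test. Among the beta chains Itgb1 made up 46.98 ± 2.09% in WT and 56.15 ± 2.88% in KO, and Itgb5 51.03 ± 1.96% and 41.3 ± 3.53%, while Itgb3, Itgb7 and Itgb8 together stayed small. Shares of 1 library sum to 100%, so they do not move independently. When the longest transcripts set the lengths, Itga6 had 57.3 ± 1.72% in WT and 47.98 ± 1.27% in KO, and the gain of Itga5 was 8.69 points beside 9.20 for Itgb1.

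**Figure D3:**
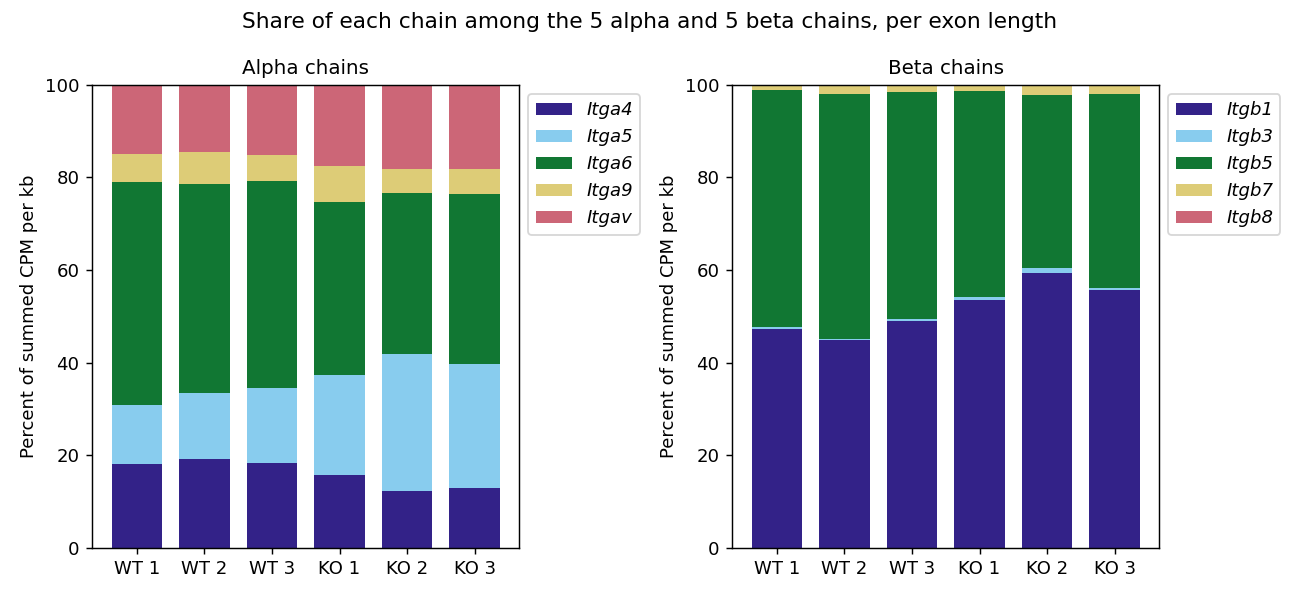
Share (percent, vertical axis) of each chain in the summed CPM per kilobase of merged exons of the 5 alpha chains (left) and the 5 beta chains (right), 1 bar per library. The Itga5 segment is 12.8 to 16.2% in WT and 21.5 to 29.6% in KO; the Itgb1 segment is 44.8 to 48.9% in WT and 53.6 to 59.3% in KO.

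Ratios of the counts of chains that pair in 1 dimer are free of library scaling and were compared over 9 pairs. The log2 ratio of Itga4 to Itgb1, the VLA-4 pair, was -0.90, -0.83 and -1.005 in WT and -1.50, -2.16 and -2.00 in KO, a 1.96-fold lower ratio in KO. The ratio of Itga6 to Itgb1 was -0.12, -0.23 and -0.34 in WT and -0.89, -1.28 and -1.12 in KO, 1.82-fold lower. In both pairs the KO libraries were all below the WT libraries. The ratio of Itga5 to Itgb1 went the other way, from -2.79 ± 0.11 to -2.47 ± 0.09 (SD, n = 3 each), 1.24-fold higher. That of Itgb5 to Itgav went from 1.53 ± 0.11 to 1.21 ± 0.09 on the log2 scale, 1.25-fold lower. Genotypes did not overlap in 6 of the 9 ratios, the others being Itgav to Itgb1 and, at very low counts, Itgb8 to Itgav. For single genes the genotypes were separate in 53.4% of all tested, and no such share was computed for ratios of other gene pairs. The 9 ratios share chains such as Itgb1 and Itgav, so they are not separate observations. Each of the 6 ratios gave a two-sided exact permutation p of 0.1, the minimum for this design, and 0.15 after Benjamini-Hochberg adjustment over the 9. The ratios Itga4 to Itgb7, Itga9 to Itgb1 and Itgb3 to Itgav overlapped (exact permutation p = 0.2 each). Since the design cannot go below 0.1, none of these ratios could pass 0.05.

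**Figure D4:**
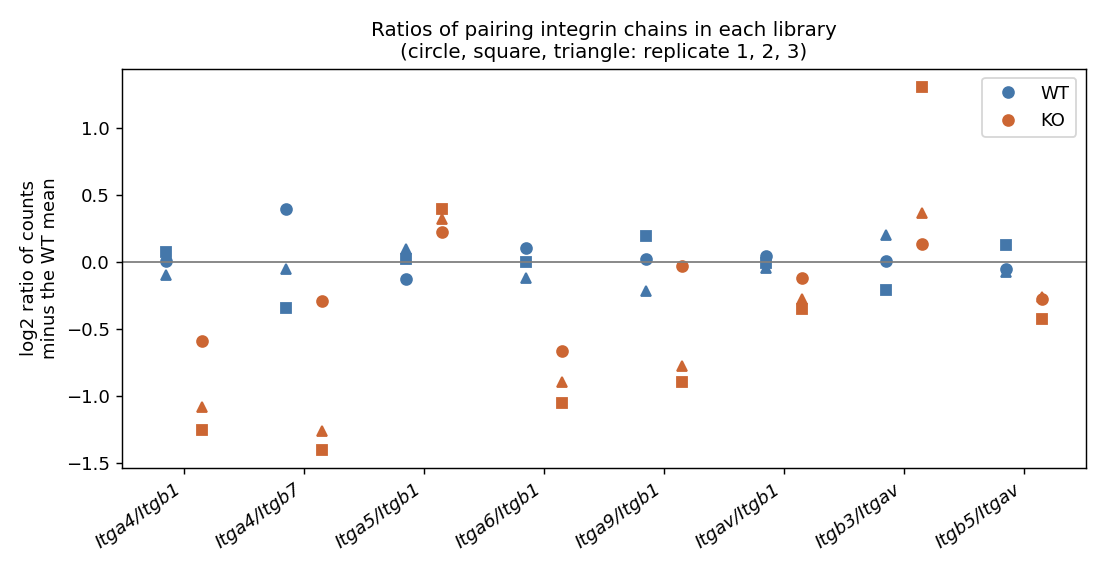
Log2 ratio of the counts of 2 pairing chains in each library, minus the WT mean of that ratio (vertical axis), for 8 of the 9 pairs; Itgb8 to Itgav is left out for its few counts. Itga4/Itgb1 and Itga6/Itgb1 lie below the WT libraries in all 3 KO libraries, Itga5/Itgb1 lies above, and for Itgb3/Itgav KO 2 lies far above the other libraries.

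The calls of the members were looked at with each library left out. Itga4, Itga6 and Itgb5 remained called in each of the 6 fits, with log2 fold changes of -0.93 to -0.67, -0.74 to -0.62 and -0.42 to -0.31. The 1 rise became 0 without WT 1, where edgeR had 1 member higher at an unadjusted p under 0.05. It became 3 without KO 1, where Itga5, Itgb1 and Itgb8 were called (Itgb8 then passing the filter, edgeR adjusted p = 0.00855). Itgb8 also passed the filter without WT 1, WT 2 or WT 3 and was not called there (edgeR adjusted p = 0.132, 0.0816 and 0.0757). In each of these fits it passed only through its 11 and 12 counts in KO 2 and KO 3, against 1 to 2 per WT library. Its call without KO 1 is therefore no separate support for a rise. The 3 falls became 4 without KO 1, by the addition of Itga9. Without WT 2 and KO 2 together, Itga5 (log2 fold change 0.42, edgeR adjusted p = 0.088) and Itgb5 (-0.27, adjusted p = 0.0625) were no longer called.

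**Figure D5:**
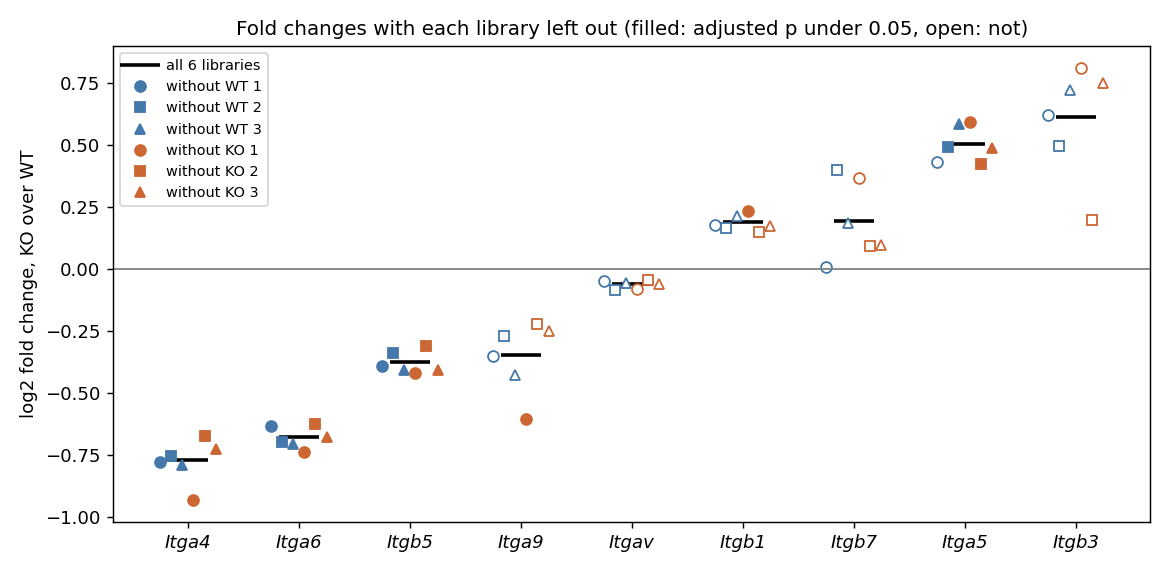
Log2 fold change of KO over WT (vertical axis) of the 9 tested integrin genes with all libraries (black line) and with each WT (blue) or KO (orange) library left out; filled symbols passed the adjusted p threshold. Itga4, Itga6 and Itgb5 stay filled throughout, and the estimate of Itgb3 drops from 0.62 to 0.20 without KO 2.

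Genes around these integrins were examined in 4 lists from general knowledge. Of 38 ligands and latency proteins 18 could be tested; 5 rose and 4 fell, 50% beside 35.2% of all genes, with a median log2 fold change of 0.42. Fn1, fibronectin, the ligand of alpha-5 beta-1, was at 12.1, 14.3 and 15.55 CPM in WT and at 24.5, 40.6 and 32.2 CPM in KO, and rose by a log2 fold change of 1.22 (SE 0.19, edgeR adjusted p = 0.00727). Spp1, osteopontin, a ligand of alpha-v, alpha-4 and alpha-9 integrins, was at 1669, 1772 and 2096 CPM in WT and at 2675, 3981 and 4264 CPM in KO (log2 fold change 0.98, SE 0.19, edgeR adjusted p = 0.0105). For both ligands every KO library was above every WT library. Lrrc32, which holds latent TGF-beta at the cell surface, rose from 4.17 ± 1.07 to 10.85 ± 2.26 CPM. Nrros, another latency protein of the list and named here after its values were seen, was far more abundant and fell. Its means were 389.6 CPM in WT and 334.7 CPM in KO (log2 fold change -0.22, edgeR adjusted p = 0.0362). Lama3, a laminin chain, fell from 13.3 ± 3.495 to 8.61 ± 0.213 CPM, and its call depended on each library except WT 2 and on the scaling, being lost with upper quartile scaling. Vcam1, the counter-receptor of VLA-4, stayed at 1.96 to 3.66 CPM in WT and 2.33 to 6.46 CPM in KO (log2 fold change 0.36, edgeR adjusted p = 0.566), KO 1 being the highest; without KO 1 the estimate was -0.30. Vtn, vitronectin, had 0 counts in all 6 libraries. Leaving out WT 1 or KO 3 gave 3 rising ligands, and leaving out KO 1 gave 8. The falling ligands numbered 1 when WT 1 or KO 3 was left out and 2 when it was WT 2, WT 3 or KO 2.

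In the list of integrin activation and actin linkage, 38 of 44 genes could be tested; 6 rose, 5 fell and 27 were not called, 28.9% beside 35.2%, and the median log2 fold change was -0.01. Ptk2, focal adhesion kinase, rose from a low level of 3.52 ± 0.761 to 9.99 ± 3.785 CPM. It was not called without WT 1, without WT 2 and KO 2 together, or with limma on the deposited signal. The related kinase Ptk2b, named here after its values were seen, was far more abundant and was not called. Its means were 238 CPM in WT and 269.7 CPM in KO (log2 fold change 0.18, edgeR adjusted p = 0.136). Src, the kinase that acts with Ptk2, rose from 4.91 ± 0.334 to 11.7 ± 2.74 CPM. Flna, the actin crosslinker filamin A that binds beta chain tails, rose from 915.5 ± 131.5 to 1688 ± 302 CPM. Kank2, an adhesion-rim protein that binds talin, fell from 61.4 ± 2.97 to 34.1 ± 1.97 CPM. Pxn, paxillin, which binds the alpha-4 tail and is named here after its values were seen, had means of 189 CPM in WT and 152.5 CPM in KO and fell (log2 fold change -0.31, SE 0.06, edgeR adjusted p = 0.00925). Leaving out WT 1 gave 2 rises, and leaving out WT 1 or WT 2 gave 3 falls.

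Among membrane partners and trafficking genes, 22 of 23 could be tested; 7 rose and 5 fell, 54.5% beside 35.2%, with a median of 0.21. Cd36, a scavenger receptor, rose 3.31-fold, to 1910.0 ± 535 CPM. Sdc1, syndecan-1, a proteoglycan co-receptor, rose from 22.2 ± 8.49 to 61.6 ± 25.3 CPM, but was not called when WT 1, WT 2, KO 2 or KO 3 was left out. Plaur, the urokinase receptor, rose from 43.6 ± 3.34 to 83.7 ± 15.9 CPM. Cd81, a tetraspanin associated with alpha-4 beta-1, fell from 205 ± 13.2 to 123 ± 19.7 CPM. Other tetraspanins of the list, named here after their values were seen, did not fall with it. Cd9, Cd63 and Cd151 rose (log2 fold changes 0.61, 0.29 and 0.38), and Cd37, Cd53 and Cd82 were not called. Leaving out WT 1, WT 2 or KO 3 gave 4 rises in this list. Falls numbered 2 when WT 1 or KO 3 was left out and 3 when it was WT 2, WT 3 or KO 2.

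Of the 17 other integrin chains, 10 could be tested; 4 rose and 1 fell, 50% beside 35.2%, with a median of 0.11. Leaving out WT 1, KO 2 or KO 3 gave 2 rises. Itga2b, the platelet partner of Itgb3, had 28, 29 and 17 counts in WT and 122, 199 and 136 in KO (log2 fold change 2.69, SE 0.29, edgeR adjusted p = 0.00433). The alpha-L, alpha-X and beta-2 chains of leukocyte integrins were also called: Itgax and Itgb2 rose by log2 fold changes of 1.76 and 0.57, and Itgal fell by 1.28. For Itgal the edgeR adjusted p of 0.0498 was just under the threshold. Itgam, the alpha-M chain, named here after its values were seen, was not called. Its means were 1018 CPM in WT and 925 CPM in KO (log2 fold change -0.14, edgeR adjusted p = 0.384). The call of Itgax was lost without WT 1, KO 2 or KO 3, and those of Itgal and Itgb2 without WT 1, WT 2, KO 2 or KO 3. Itgal was the 1 fall, and 2 chains fell when WT 3 was left out. Platelet and megakaryocyte markers, a list that includes Itga2b, rose in 6 of 8 tested and fell in 0, with none lower in edgeR at an unadjusted p under 0.05 either. Their summed level was 169 to 245 CPM in WT and 182 to 286 CPM in KO, nearly all of it Pf4, and no listed marker was at 0 in all libraries. Gp9 and Gp1ba, platelet glycoproteins, stayed at 0 to 3 counts in WT libraries and 8 to 33 in KO. Their part in the level of Itga2b and Itgb3 was not tested. Monocyte markers summed to 1633 to 2069 CPM in WT and 603 to 1117 CPM in KO, with 2 of 7 lower (Cx3cr1 and F13a1), and their part in the falls of Itga4 and Itga6 was not tested.

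Genes with the most similar pattern were sought for each called member, as the smallest root mean square difference of mean-centred log2 CPM over the 6 libraries among 8808 genes. Nearest to Itga4 were Fcho2 (0.038), Arhgap15 (0.039) and Hacd4 (0.050), and nearest to Itga6 were Kiz (0.029), Deptor (0.030) and Pdk2 (0.040). For Itga5 they were Myof (0.025), Dna2 (0.032) and Lasp1 (0.036), and for Itgb5 Mtmr4 (0.012), Rasa3 (0.020) and Zmym3 (0.023). No member was among the 3 nearest genes of another. With 6 libraries in 2 genotypes, such likeness is a description of these libraries.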

How the data were processed

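Per the labels' protocols, RNA was extracted with Trizol and a column kit and made into directional libraries. The tools and build listed per the submitters' processing notes are DRAGEN, DESeq2 and mm10, without version or role; annotation and counting method: not given in the sources used here. The authors deposited whole-number counts per Ensembl gene, and a normalized signal that is 0 wherever the count is 0. Replicates were numbered in accession order, since the labels give no number. No pair of replicate libraries agreed within sampling noise (chi-square per degree of freedom 11.7 to 48.8).

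Counts were tested with edgeR 4.0.16 (R 4.3.3): filterByExpr by genotype (minimum count 10), TMM scaling, and the robust quasi-likelihood test with genotype as the only term, tested first on simulated counts. P-values are two-sided and Benjamini-Hochberg adjusted, with a threshold of 0.05. Symbols, positions and exon lengths come from GENCODE M21 (GRCm38, the assembly of mm10), in which all 42256 genes were found. Alternatives used DESeq2 1.42.0, limma 3.58.1 (voom, and log2 of the deposited signal plus 1), other scalings and filters, and fewer libraries. The members and lists were chosen with earlier results of these data known. Named were all members, Cdh11, Itga2b, Fn1, Vcam1, Vtn and Spp1, in each list up to 4 called genes of largest change whose mean log2 CPM was 0 or more, and the 3 genes nearest in pattern to each called member (mean log2 CPM 3 or more, pseudocount 0.5, no predicted models). Among markers of other cells, 5 of 8 for dendritic cells, 9 of 10 for neutrophils and 2 of 6 for endothelial cells were tested. Of 7 B cell markers 1 was tested, and of 10 stromal markers 1. None of these was called. Of 8 T and NK cell and 7 erythroid markers 0 were tested, so no call was possible there. Of 5 eosinophil markers 3 were tested and 2 were higher in KO, Ccr3 and Prg2. The sum was 8.53 to 15.2 CPM in WT and 23.5 to 35.2 CPM in KO, most of it Ccr3. Siglecf was not called (edgeR adjusted p = 0.14). Epx had 1 to 4 counts in WT libraries and 0 to 1 in KO libraries, and Il5ra had 0 counts in all.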

Additional observations from a re-analysis of the deposited data

How the results depend on the processing

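Results were recomputed under 3 other scalings, 2 other filters, 3 other tests, the deposited signal and fewer libraries. The falls of Itga4, Itga6 and Itgb5 kept their call in all of these except Itgb5 without WT 2 and KO 2 together; Itga5 lost its call there and without WT 1. The 9 ratios of chains kept their direction in all 63 alternatives run. Most of these left out 1 library, which cannot reverse a ratio whose genotypes do not overlap. For such ratios the kept direction is therefore no separate support. Of the members, 2 were higher instead of 1 with upper quartile scaling, no filter, DESeq2 or voom with sample quality weights. Without WT 2 and KO 2 together 0 were higher (edgeR: 1 at an unadjusted p under 0.05). Leaving out 1 library gave 0 to 3, the 3 including Itgb8, which passed the filter only through KO. The 3 falls were 4 with quality weights, where Itga9 was added, and 2 without both libraries. Without WT 2 and KO 2 together, 710 genes were higher and 668 lower; leaving out 1 library gave 1037 to 2791 higher and 942 to 2665 lower. The cause of these differences was not tested, and fewer libraries also give the test less power.

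For the other integrin chains the rises were 1 without WT 2 and KO 2 together and 2 to 4 without 1 library. Their 1 fall became 0 with upper quartile scaling, plain totals, no filter, or without WT 2 and KO 2 together (edgeR had 2, 2, 1 and 1 lower at an unadjusted p under 0.05), 2 with quality weights, and 0 to 2 without 1 library (0 without WT 1, WT 2, KO 2 or KO 3, where edgeR had 1, 1, 2 and 0 lower unadjusted). Ligand rises were 8 with quality weights, 1 without both libraries and 3 to 8 without 1; falls were 1 with upper quartile scaling, 2 with the deposited signal, 2 without both and 1 to 3 without 1. Activation and linkage rises were 10 with upper quartile scaling, 11 with quality weights, 2 without both and 2 to 9 without 1; falls were 3 without both and 3 to 5 without 1. Membrane partner rises were 12 with quality weights, 4 without both and 4 to 10 without 1; falls were 3 with the deposited signal, 3 without both and 2 to 5 without 1. The estimate of Vcam1, which was never called, ran from -0.30 to 0.61 without 1 library, turning negative without KO 1. Depth limits Itgb8 and Cdh11, where 3 counts correspond to 0.0804 to 0.113 CPM.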
